A study of Mus musculus with 6 samples.

Results

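Glycolysis and the response to low oxygen were followed in cancer stem cells through a list of 36 genes. Members were the genes whose array feature carried a listed name as its only platform gene symbol, with the brightest feature taken for each gene, and 33 of the 36 were found among 30140 genes tested. Gpi1 and Eno1 were not analysed here, and neither was Ero1l under that name; the feature of its current symbol, Ero1a, is described apart from the 33. The cells were isolated from squamous carcinomas of mouse skin, either wild type (WT) or labelled Sfrp1-/- (Sfrp1_KO); Sfrp1 encodes a secreted antagonist of Wnt signalling. Tumours of both genotypes had been raised with the mutagen DMBA on 3 days (postnatal days 23, 25 and 27) and TPA, a promoter of tumours, 2 times a week over 30 to 40 weeks. The sort kept lineage-negative cells with surface Epcam, alpha-6 integrin and CD34, and each of the 6 samples (3 WT, 3 Sfrp1_KO) was measured on 1 Affymetrix MTA 1.0 array. The labels give neither the ages of the mice at sorting nor the design of the deleted allele, and are silent on whether replicates are separate mice, so the p-values speak only to the spread among these arrays, which may be technical.

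Glycolysis splits glucose to pyruvate in the cytosol, and lactate dehydrogenase can turn that pyruvate into lactate where oxygen is short or where a tumour cell grows fast. The hypoxia-inducible factors (HIF) are made all the time, and in oxygen their alpha subunits are marked by prolyl hydroxylases and destroyed, so control acts largely on the protein. When oxygen falls, the alpha subunit is kept, pairs with ARNT and binds the core letters ACGTG or GCGTG in target genes, many of which encode glycolytic enzymes. Carcinomas of stratified epithelium are known for hypoxic zones in which such targets are high.

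Values are deposited log2 probe set signals. They reach 19.93, above the 16 log2 units of a 16-bit scanner, so the scale was altered by an unstated step and a difference of 1 unit need not be a doubling of RNA. Array medians lay between 4.32 and 4.46, and the background level of an array, its highest of 23 antigenomic probe sets, between 4.82 and 5.10. The number of arrays limits the precision. Sfrp1, the targeted gene, stood at 5.71, 5.48 and 6.07 on the WT arrays and at 5.09, 5.11 and 5.15 on the Sfrp1_KO arrays (difference -0.64, SE 0.15, limma adjusted p = 0.0969), without overlap but not past the threshold. In bulk samples, fewer cells of a type and less RNA per cell cannot be told apart. Keratinocyte markers moved with genotype: all 14 were lower on every Sfrp1_KO array than on any WT array, and 13 were called lower. The list mean lay between 9.89 and 10.56 on WT arrays and between 5.64 and 5.71 on Sfrp1_KO arrays. Krt5 was at 17.39 ± 0.50 (SD, n = 3) and 6.64 ± 0.30, Krt14 at 14.07 ± 1.04 and 6.62 ± 0.16, and Cdh1 at 9.47 ± 0.20 and 5.09 ± 0.14. Epcam, a marker of the sort, was at 7.59 ± 1.03 and at 5.03 ± 0.17, near background, while Itga6, the alpha-6 integrin of the same gate, was at 9.51 ± 0.64 and 7.62 ± 0.18, above background on all 6 arrays. The list mean of fibroblast markers was 5.66 to 6.80 in WT and 6.19 to 6.73 in Sfrp1_KO. Of the WT arrays, only replicate 3, at 6.80, was not below every Sfrp1_KO array. Of the 11 markers, 2 were called higher and 1 lower in Sfrp1_KO. Col3a1 was at 5.87 ± 0.36 and 6.82 ± 0.29 and was not called (limma adjusted p = 0.0905). Leukocyte markers had list means of 4.43 to 4.52 and 4.69 to 5.26, with 0 of 11 called and 6 at or under background on every array, Ptprc among them, while Lyz2 was at 4.94 ± 0.22 and 6.91 ± 1.00. Endothelial (4.31 to 4.82 and 4.47 to 4.69), skeletal muscle (4.44 to 4.56 and 4.43 to 4.55) and erythroid (4.28 to 4.41 and 4.27 to 4.30) list means did not exceed 4.82, with 0 of 8, 0 of 8 and 0 of 2 called (Pecam1 5.08 ± 0.33 and 4.70 ± 0.10, Ckm 4.17 ± 0.07 and 4.22 ± 0.06). At an unadjusted limma p under 0.05 stood 6, 1, 0 and 0 genes of the leukocyte, endothelial, muscle and erythroid lists. The endothelial gene was Cdh5, at 4.22, 4.36 and 5.16 in WT and at 7.15, 6.695 and 4.88 in Sfrp1_KO. Its difference was 1.66 (SE 0.597, limma adjusted p = 0.264), and Sfrp1_KO replicate 3 lay below WT replicate 3. Cdh5 alone had a higher mean in Sfrp1_KO, and 7 of the 8 endothelial markers had lower means. Cdh5 is named outside the rule for named genes, after its values were seen. The part of these cell type markers in the results that follow was not tested.

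The promoters of 6 members are shown, the 4 that passed the test and Car9 and Bnip3, which stood higher on every Sfrp1_KO array and were picked with their values known. Each run is the 250 bases before the RefSeq start (first listed start, build GRCm38.p6), 5′ to 3′ along the gene, with ACGTG or its reverse complement in capitals. They lie at chr12:73907617-73907866 (plus strand) for Hif1a, chr7:46845554-46845803 (plus) for Ldha, chr9:66713436-66713685 (plus) for Car12, chr10:59323046-59323295 (plus) for P4ha1, chr4:43506776-43507025 (plus) for Car9 and chr7:138909507-138909756 (minus) for Bnip3.
Hif1a: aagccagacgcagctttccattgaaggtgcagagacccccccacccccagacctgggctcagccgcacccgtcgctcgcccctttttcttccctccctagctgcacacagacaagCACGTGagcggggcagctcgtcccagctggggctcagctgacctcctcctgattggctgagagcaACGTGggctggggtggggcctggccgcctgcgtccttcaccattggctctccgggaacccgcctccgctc
Ldha: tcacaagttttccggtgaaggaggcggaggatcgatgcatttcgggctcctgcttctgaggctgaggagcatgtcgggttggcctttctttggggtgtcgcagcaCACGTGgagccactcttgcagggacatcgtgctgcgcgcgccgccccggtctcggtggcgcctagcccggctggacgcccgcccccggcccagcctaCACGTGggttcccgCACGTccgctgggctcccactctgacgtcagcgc
Car12: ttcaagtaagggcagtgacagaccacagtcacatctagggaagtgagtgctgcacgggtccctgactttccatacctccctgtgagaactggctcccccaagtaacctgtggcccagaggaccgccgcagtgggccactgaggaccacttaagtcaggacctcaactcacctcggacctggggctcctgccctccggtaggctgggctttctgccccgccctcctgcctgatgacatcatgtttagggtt
P4ha1: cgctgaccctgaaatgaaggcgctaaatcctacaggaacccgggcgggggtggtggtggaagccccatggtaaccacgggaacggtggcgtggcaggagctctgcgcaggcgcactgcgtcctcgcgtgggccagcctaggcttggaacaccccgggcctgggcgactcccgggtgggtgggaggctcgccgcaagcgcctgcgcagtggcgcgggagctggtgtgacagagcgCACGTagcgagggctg
Car9: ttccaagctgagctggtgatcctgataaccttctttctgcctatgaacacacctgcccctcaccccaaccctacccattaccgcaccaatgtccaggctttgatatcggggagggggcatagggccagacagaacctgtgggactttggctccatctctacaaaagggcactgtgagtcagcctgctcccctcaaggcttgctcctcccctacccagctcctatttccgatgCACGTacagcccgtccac
Bnip3: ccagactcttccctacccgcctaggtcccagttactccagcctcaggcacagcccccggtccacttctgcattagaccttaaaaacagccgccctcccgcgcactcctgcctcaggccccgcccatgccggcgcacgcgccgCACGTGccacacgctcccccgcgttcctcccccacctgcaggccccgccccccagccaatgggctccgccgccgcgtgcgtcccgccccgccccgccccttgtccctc
Ldha held 5 matches to ACGTG over both strands, Hif1a 3, Bnip3 2, and P4ha1 and Car9 1 each, while Car12 held none in this window. The other core, GCGTG, is not in capitals above. Bnip3 held 3 matches to it and P4ha1 2, and the other promoters shown held none. The palindrome CACGTG holds the core on both strands, where it was counted once for each; Ldha held 2 such stretches, and Hif1a and Bnip3 1 each. The match in Car9 lay 18 to 14 bases before the start and that in P4ha1 16 to 12 bases before it. Over all members the promoter table matched 33 of the 36 names, Ero1l through Ero1a. Of these 33 promoters, 16 (48.5%) held ACGTG and 18 (54.5%) held GCGTG, against 16.6% and 28.2% of 27025 promoters of the same length in the table. Base composition was not matched between these sets, and a match is a description of letters and not a bound site. Both directions of change occurred with the motif present, since Ldha and Hif1a were lower and P4ha1 higher in Sfrp1_KO.

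Sfrp1_KO cells had lower Hif1a, Ldha and Car12 and higher P4ha1, and the steps from glucose to pyruvate held no called member. By limma over all genes, 3 of the 33 members fell and 1 rose with adjusted p under 0.05, and 29 did not pass. Those 4 are 12.1% of the members, where 3.28% of all genes were called (1.45% lower and 1.83% higher). By the mean of the 6 arrays 26 members stood above background, the 4 called ones among them (15.4%), and among all genes above it 7.84% were called (3.44% lower and 4.4% higher). The arrays of the genotypes did not overlap for 15 members (45.5%), 11 lower and 4 higher in Sfrp1_KO, where 19.9% of all genes (10.8% lower and 9.1% higher) did not overlap. Over the 26 members above background they did not overlap for 10 (38.5%), against 32.1% of all genes above it. The median difference of the members was -0.16, with 23 below 0 and 10 above, against -0.01 over all genes.

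**Figure D1:**
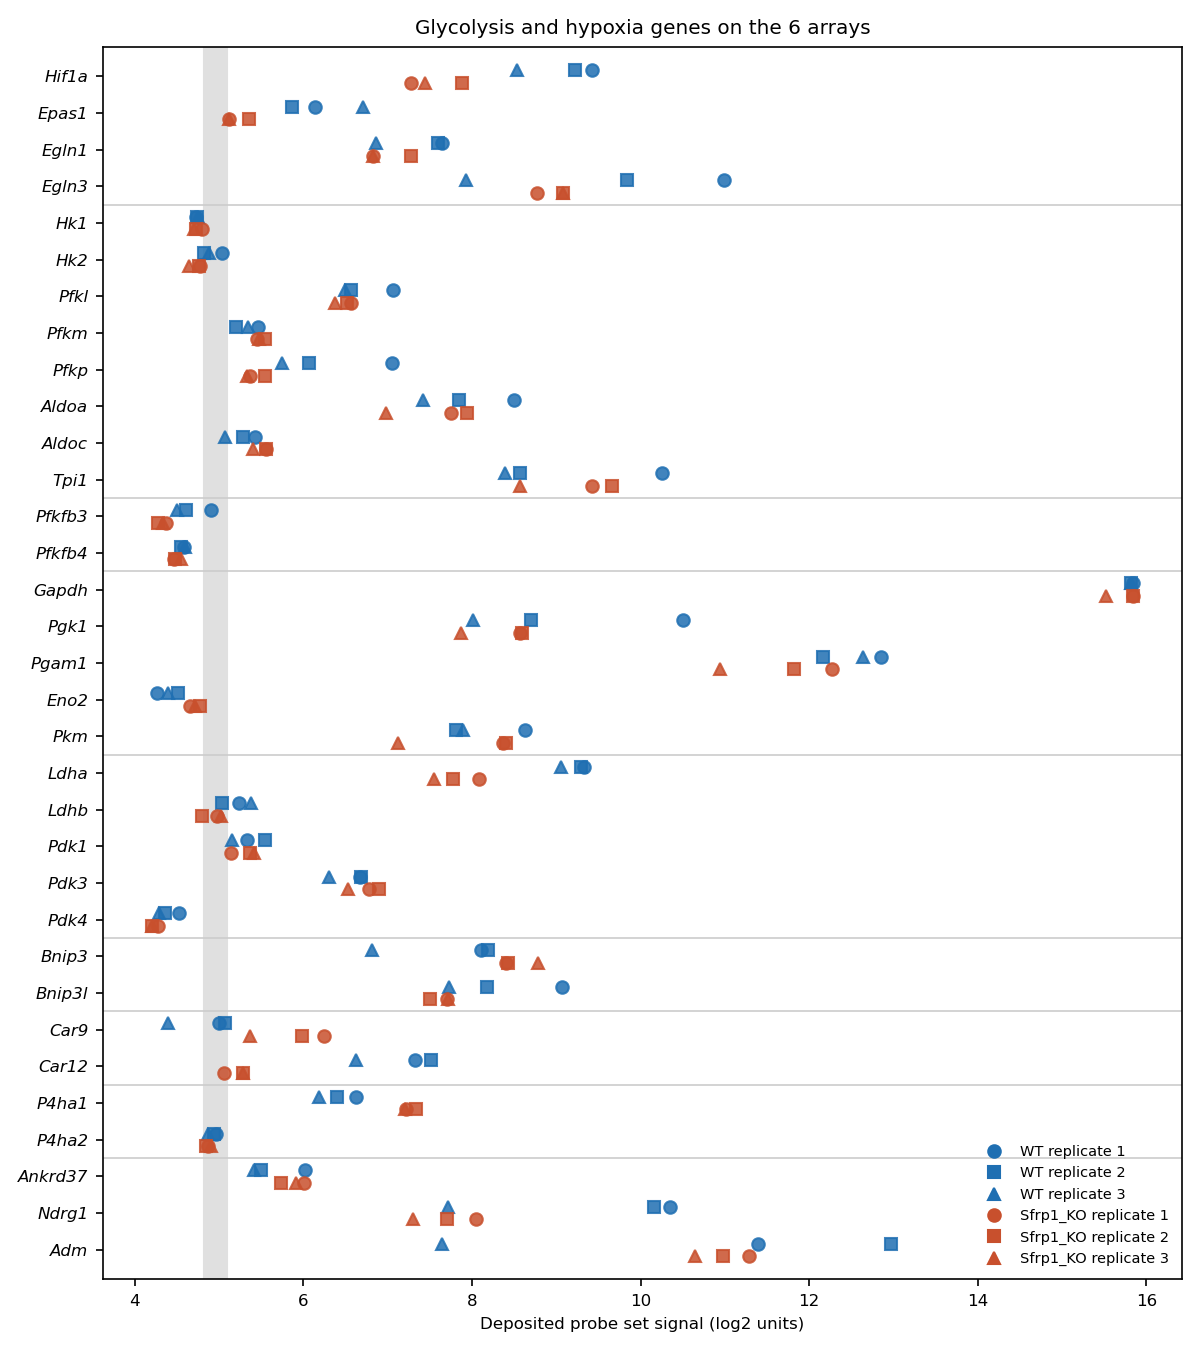
Deposited signal (log2 units, x axis) of the 33 members on each array, with circles, squares and triangles for replicates 1, 2 and 3, WT in blue and Sfrp1_KO in orange; the grey band spans the background levels of the 6 arrays, 4.82 to 5.10, and horizontal lines divide the roles. Hif1a, Ldha and Car12 are lower and P4ha1 higher on every Sfrp1_KO array, and WT replicate 3 stands apart from the other WT arrays for Adm, Egln3 and Ndrg1.

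**Figure D2:**
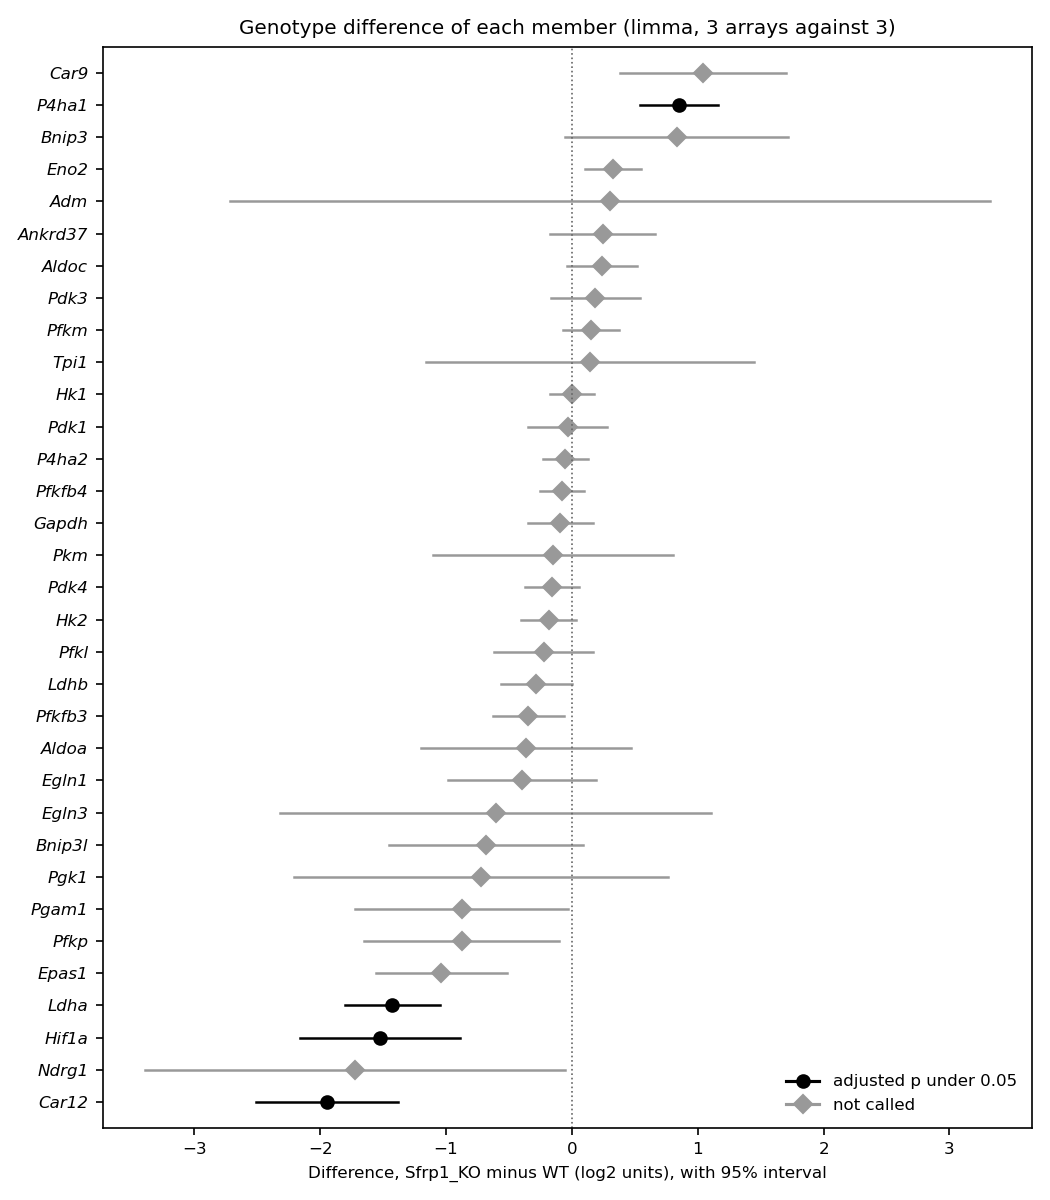
Difference between genotypes (Sfrp1_KO minus WT, log2 units) of each member with its 95% interval from limma; black circles mark the 4 called members and grey diamonds the other 29. Intervals are widest for Adm, Ndrg1, Egln3 and Pgk1.

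All 4 list members of oxygen sensing, Hif1a, Epas1, Egln1 and Egln3, had lower means in Sfrp1_KO, and Hif1a passed the test. Further genes of oxygen sensing, counted below with the hypoxia response genes, were not all lower. Egln2 differed by 0.04 and Arnt by 0.07 (Sfrp1_KO minus WT), both above background on 6 arrays. Hif1an differed by -0.09 and was at or under background on every array. Egln2, Arnt and Hif1an are named outside the rule for named genes, after their values were seen. Hif1a, the alpha subunit that most cells use, stood at 9.42, 9.22 and 8.54 on the WT arrays and at 7.27, 7.88 and 7.45 on the Sfrp1_KO arrays. The lowest WT array lay above the highest Sfrp1_KO array. Hif1a fell by 1.53 (SE 0.26, 95% CI -2.16 to -0.89, limma adjusted p = 0.0355). Its call ended without WT replicate 1 (-1.35, limma adjusted p = 0.0801), WT replicate 2 (-1.45, 0.102) or any of Sfrp1_KO replicates 1, 2 and 3 (-1.40, 0.129; -1.70, 0.0811; -1.48, 0.109), and when all transcript clusters entered the fit (adjusted p = 0.0567), with the replicate block (0.0680) and without moderation of variances (0.196).

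Epas1, which encodes HIF-2 alpha, the form known from endothelium and kidney, was at 6.13, 5.86 and 6.71 in WT and at 5.12, 5.35 and 5.12 in Sfrp1_KO. The genotypes did not overlap, and the Sfrp1_KO arrays were near background. The difference of -1.04 (SE 0.22, 95% CI -1.56 to -0.52) did not pass (limma adjusted p = 0.0644), but did without WT replicate 2 (-1.22, adjusted p = 0.0472), with array weights (-1.09, 0.0422), with dim genes left out (0.0434) and with the trend and robust options (0.0475).

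Egln1 and Egln3 encode prolyl hydroxylases that mark HIF alpha, and Egln3 is itself a HIF target. Egln1 ranged from 6.86 to 7.65 in WT and from 6.82 to 7.28 in Sfrp1_KO (difference -0.39, SE 0.24, limma adjusted p = 0.586). Egln3 was at 10.99, 9.83 and 7.92 in WT and at 8.77, 9.08 and 9.08 in Sfrp1_KO. Its WT arrays thus lay on both sides of the Sfrp1_KO arrays, and the difference of -0.60 (SE 0.71, limma adjusted p = 0.837) became 0.10 without WT replicate 1 (adjusted p = 0.970) and -1.43 without WT replicate 3 (adjusted p = 0.145).

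None of the 8 measured genes of the first phase of glycolysis, from glucose to the triose phosphates, passed the limma test. At an unadjusted limma p under 0.05 stood 1 of them. The share of all genes at that unadjusted threshold was not computed, so such counts, here and below, are only descriptions. The hexokinases trap glucose in the cell, and their features were dim: Hk1 was at or under background on every array (4.70 to 4.80 over the 6), and Hk2 was above it on 1 WT array only (5.03, 4.83 and 4.88 in WT, 4.77, 4.76 and 4.64 in Sfrp1_KO). Of the phosphofructokinase subunits, which carry the committed step, the platelet form Pfkp was at 7.06, 6.07 and 5.74 in WT and at 5.37, 5.55 and 5.33 in Sfrp1_KO. Every Sfrp1_KO array was lower, and the difference of -0.88 (SE 0.32, 95% CI -1.65 to -0.10) did not pass (limma adjusted p = 0.278) and was -0.49 without WT replicate 1. Pfkl, the liver form, ranged from 6.50 to 7.07 in WT and from 6.37 to 6.57 in Sfrp1_KO, and Pfkm, the muscle form, from 5.20 to 5.46 and from 5.45 to 5.54. Aldoa, the main aldolase outside liver and brain, was at 8.50, 7.85 and 7.41 against 7.75, 7.94 and 6.98 (difference -0.37, SE 0.35, adjusted p = 0.769), with overlapping genotypes, and the difference was -0.08 without WT replicate 1 or without Sfrp1_KO replicate 3 and -0.62 without WT replicate 3. Aldoc, the brain aldolase, ranged from 5.07 to 5.43 and from 5.40 to 5.55. Tpi1, the triose phosphate isomerase, was at 10.26, 8.57 and 8.39 in WT and 9.42, 9.67 and 8.56 in Sfrp1_KO, with WT replicate 1 above all other arrays (difference 0.14, SE 0.54; 0.74 without that array and -0.20 without WT replicate 3).

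Pfkfb3 and Pfkfb4 make and remove the fructose bisphosphate that stimulates phosphofructokinase, and both are HIF targets. Their features were at or under background on all 6 arrays, between 4.28 and 4.90 for Pfkfb3 and between 4.47 and 4.60 for Pfkfb4. The arrays of the genotypes did not overlap but were only 0.0022 apart for Pfkfb4 and 0.13 apart for Pfkfb3.

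The second phase, from the triose phosphates to pyruvate, also held no called member among 5. At an unadjusted limma p under 0.05 stood 2, a count without its share over all genes. Gapdh, which oxidises glyceraldehyde phosphate, was at 15.84, 15.82 and 15.82 in WT and 15.84, 15.84 and 15.52 in Sfrp1_KO (difference -0.09, SE 0.11, limma adjusted p = 0.837), and the difference was 0.01 without Sfrp1_KO replicate 3. Many processed copies of Gapdh exist in the mouse genome, and its feature may share their signal. Pgk1, phosphoglycerate kinase, was at 10.50, 8.70 and 8.01 in WT and 8.57, 8.59 and 7.87 in Sfrp1_KO. WT replicate 1 was the highest array, and the difference of -0.72 (SE 0.62, adjusted p = 0.734) was -0.0084 without it. The brightest Pgk1 feature has an identifier of chromosome 12, while RefSeq places the gene on X; its X feature was at 9.04, 7.64 and 7.31 in WT and 7.66, 7.66 and 7.36 in Sfrp1_KO, with WT replicate 1 again the highest. Pgam1, phosphoglycerate mutase, was at 12.85, 12.16 and 12.64 against 12.27, 11.82 and 10.95, with genotypes that overlapped (difference -0.87, SE 0.35, 95% CI -1.72 to -0.03, adjusted p = 0.328; -0.51 without Sfrp1_KO replicate 3). Pkm, pyruvate kinase, was at 8.63, 7.81 and 7.90 against 8.37, 8.41 and 7.12 (difference -0.15, SE 0.40), and the difference was 0.27 without Sfrp1_KO replicate 3, 0.11 without WT replicate 1 and 0.15 with array weights. Eno2, the neuronal enolase, was under background on all arrays (4.26 to 4.51 in WT, 4.66 to 4.78 in Sfrp1_KO).

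At the fate of pyruvate, Ldha was the member with the smallest p. It encodes the muscle subunit of lactate dehydrogenase, which favours lactate. Ldha stood at 9.33, 9.29 and 9.06 in WT and at 8.09, 7.77 and 7.55 in Sfrp1_KO, so that 0.97 separated the lowest WT array from the highest Sfrp1_KO array. It fell by 1.43 (SE 0.16, 95% CI -1.80 to -1.05, limma adjusted p = 0.00871). The call ended without Sfrp1_KO replicate 2 (-1.41, limma adjusted p = 0.0524) and held without each of the other 5 arrays; it also ended without moderation (0.102). Ldhb, the heart subunit, was at 5.23, 5.03 and 5.38 in WT and at or under background in Sfrp1_KO (4.97, 4.80 and 5.02); its difference was -0.28 (SE 0.12, adjusted p = 0.349).

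The pyruvate dehydrogenase kinases Pdk1, Pdk3 and Pdk4 hold pyruvate back from the mitochondrion, and Pdk1 is a known HIF target. Pdk1 was at 5.33, 5.54 and 5.16 in WT and 5.14, 5.37 and 5.41 in Sfrp1_KO, with full overlap (difference -0.03, SE 0.13, 95% CI -0.35 to 0.28, limma adjusted p = 0.968). Its difference was 0.07 without WT replicate 2 and 0.05 without Sfrp1_KO replicate 1. Pdk3 ranged from 6.30 to 6.68 and from 6.53 to 6.90, and Pdk4 was under background on every array.

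Of the members that act outside glycolysis, Car12 fell and P4ha1 rose. Car9 and Car12 encode carbonic anhydrases on the cell surface, which handle the acid that hypoxic tumour cells release. Car12 stood at 7.33, 7.52 and 6.62 in WT and at 5.06, 5.29 and 5.28 in Sfrp1_KO. Each Sfrp1_KO array was over 1 log2 unit below each WT array, and Sfrp1_KO replicate 1 was under its background level. Car12 fell by 1.95 (SE 0.23, 95% CI -2.51 to -1.38, limma adjusted p = 0.0112), with no call without Sfrp1_KO replicate 1 (-1.87, limma adjusted p = 0.0552) or replicate 2 (-1.98, 0.0616), or without moderation (0.123). Car9 was at 5.00, 5.07 and 4.39 in WT, around or under background, and at 6.24, 5.98 and 5.37 in Sfrp1_KO. All Sfrp1_KO arrays were higher, and the difference of 1.04 (SE 0.27, 95% CI 0.38 to 1.70) did not pass (limma adjusted p = 0.124).

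P4ha1 and P4ha2 encode catalytic subunits of the prolyl hydroxylase of collagen, a step in the endoplasmic reticulum that precedes folding of the triple helix. P4ha1 was at 6.63, 6.40 and 6.18 in WT and at 7.22, 7.34 and 7.20 in Sfrp1_KO, with no overlap and little spread in Sfrp1_KO. It rose by 0.85 (SE 0.13, 95% CI 0.54 to 1.16, limma adjusted p = 0.0221). The call ended without WT replicate 2 (0.85, limma adjusted p = 0.0665) or without Sfrp1_KO replicates 1, 2 or 3 (0.87, 0.0864; 0.81, 0.108; 0.88, 0.0639), with the replicate block (0.0597), without moderation (0.137) and where a difference of at least 1 was required. The list mean of fibroblast markers overlapped between genotypes only through WT replicate 3, at 6.80. On the other WT arrays it lay below every Sfrp1_KO array (6.19 to 6.73). P4ha1 itself was lowest among WT arrays on replicate 3, at 6.18. Of the 11 fibroblast markers, 7 had higher and 4 lower means in Sfrp1_KO, with 2 called higher and 1 lower. Pdgfrb, a receptor of stromal cells, was at 5.05 ± 0.23 and 8.77 ± 0.78 (SD, n = 3), and Col1a1, a fibrillar collagen, at 6.77 ± 0.75 and 6.32 ± 0.42. The part of these fibroblast markers in the rise of P4ha1 was not tested. P4ha2 was around background on all arrays (4.85 to 4.96). The feature named Ero1a, an oxidase of the endoplasmic reticulum, was at 8.26, 7.83 and 6.12 in WT and 7.28, 7.48 and 7.34 in Sfrp1_KO, with WT arrays on both sides of the Sfrp1_KO arrays (difference -0.04, SE 0.52, adjusted p = 0.994; 0.17 with array weights, 0.39 without WT replicate 1 and -0.68 without WT replicate 3).

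Bnip3 and Bnip3l encode related receptors that mark mitochondria for autophagy, and both are HIF targets. Bnip3 was at 8.11, 8.18 and 6.82 in WT and at 8.40, 8.43 and 8.78 in Sfrp1_KO (difference 0.83, SE 0.37, limma adjusted p = 0.381), and its difference was 0.39 without WT replicate 3. Bnip3l was at 9.06, 8.17 and 7.73 in WT and at 7.71, 7.50 and 7.71 in Sfrp1_KO (difference -0.68, SE 0.32, adjusted p = 0.425), and its difference was -0.31 without WT replicate 1. Neither passed, although the genotypes did not overlap for either gene, in opposite directions.

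No call was made among the 3 remaining hypoxia targets, Adm, Ndrg1 and Ankrd37. At an unadjusted limma p under 0.05 stood 1, again without the share over all genes. Adm, the vasodilator peptide adrenomedullin, was at 11.40, 12.97 and 7.64 in WT and at 11.29, 10.98 and 10.65 in Sfrp1_KO. WT replicate 3 lay 5.32 below the highest WT array, and the difference of 0.30 (SE 1.25, limma adjusted p = 0.973) became -1.21 without it (adjusted p = 0.374). Ndrg1, a stress and differentiation gene induced by hypoxia, was at 10.35, 10.15 and 7.71 in WT and at 8.05, 7.71 and 7.30 in Sfrp1_KO. WT replicate 3 lay within the range of the Sfrp1_KO arrays; the difference of -1.72 (SE 0.69, 95% CI -3.39 to -0.05) did not pass (adjusted p = 0.328), and passed without that array (-2.57, adjusted p = 0.0109). Ankrd37, a small ankyrin protein, ranged from 5.42 to 6.01 in WT and from 5.74 to 6.01 in Sfrp1_KO.

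**Figure D3:**
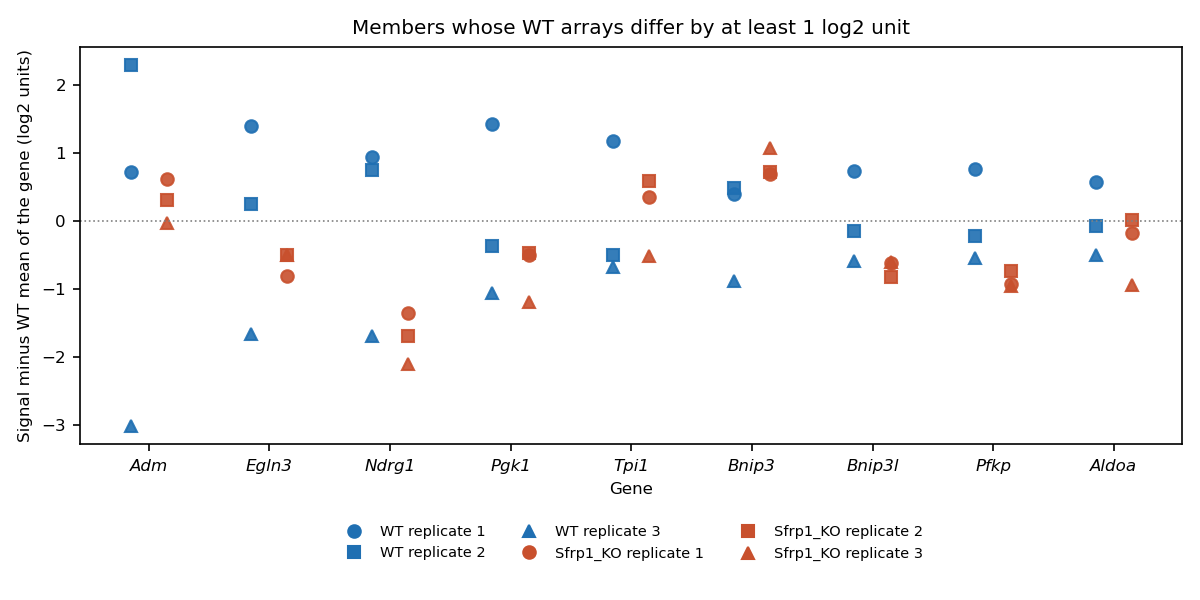
Signal of each array minus the WT mean of the gene (log2 units, y axis) for the 9 members whose WT arrays span at least 1 log2 unit, with WT in blue on the left and Sfrp1_KO in orange on the right of each gene, and circles, squares and triangles for replicates 1, 2 and 3. WT replicate 3 is the lowest WT array for all 9, and the range is largest for Adm, at 5.32.

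This spread among WT arrays was described over the whole list. The range of the WT arrays reached 1 log2 unit for 9 of 33 members (27.3%), against 5.55% of all genes, and that of the Sfrp1_KO arrays for 3 (9.09%, against 2.66%). The 9 were Adm, Egln3, Ndrg1, Pgk1, Tpi1, Bnip3, Bnip3l, Pfkp and Aldoa. All 9 are among the 26 members above background by mean, of which they are 34.6%, against 13.7% of all genes above it. WT replicate 3 was the lowest WT array for 24 of 33 members (72.7%, against 25.4% of all genes) and for 21 of the 26 (80.8%, against 35.5% of genes above background). WT replicate 1 was the highest for 22 of 33 (66.7%, against 30.5%) and for 18 of the 26 (69.2%, against 55.1%). Sfrp1_KO replicate 3 was the lowest Sfrp1_KO array for 19 of 33 (57.6%, against 31.1%) and for 16 of the 26 (61.5%, against 54.5%). The SD among WT arrays was larger than that among Sfrp1_KO arrays for 26 of 33 (78.8%, against 58.0%) and for 21 of the 26 (80.8%, against 61.9%). With 1 array left out, the difference moved by over 1.5 times or changed sign for 22 of the 29 members that were not called. Hk1, at or under background on every array, is among them. The same share over all genes was not computed, so this count is not read as a trait of the members. The labels give no tumour, mouse or batch that sets WT replicate 3 apart. Markers differed on that array: each measured fibroblast and endothelial marker was highest there among WT arrays, against 36.6% of all genes. Most keratinocyte markers were highest there too, Krt5, Krt14 and Cdh1 among them, while others such as Epcam and Itga6 were not. Of the 8 endothelial markers, 5 were at or under background on every array. Dcn, with the widest WT range of the fibroblast list, was at 6.54, 6.58 and 10.56 on WT replicates 1, 2 and 3. Dcn is named outside the rule for named genes, after its values were seen. The part of these markers in the spread was not tested.

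Related enzymes were then compared by how unequally they moved, through the difference of both genes on an array and its shift between genotypes. Of 14 planned pairs 13 could be compared, the enolase pair being the exception. Each shift had a two-sided exact permutation test over arrays, in which 3 arrays against 3 cannot give a p below 0.1, so no pair could pass. The 13 p-values were adjusted together. Car12 minus Car9 shifted by -2.99, from 2.33 ± 0.11 (SD, n = 3) in WT to -0.65 ± 0.55 in Sfrp1_KO (exact p = 0.1, adjusted p = 0.186). Bnip3l minus Bnip3 shifted by -1.52, from 0.62 ± 0.55 to -0.90 ± 0.19 (n = 3, exact p = 0.1, adjusted p = 0.186). Both pairs had arrays that did not overlap. Car9 was above background on 1 WT array and Car12 was under it on Sfrp1_KO replicate 1, so the size of the carbonic anhydrase shift rests in part on background signal. Ldhb minus Ldha shifted by 1.14 (exact p = 0.1), P4ha2 minus P4ha1 by -0.90 (exact p = 0.1) and Pfkp minus Pfkl by -0.65 (exact p = 0.1), also without overlap. Ldhb and P4ha2 lie around background, so these values mostly repeat the differences of Ldha and P4ha1. Pfkp minus Pfkl was -0.45 without WT replicate 1. Pairs without overlap numbered 7, the others being Pfkm minus Pfkl (0.38) and Hk2 minus Hk1, where Hk1 was above background on 0 arrays and Hk2 on 1, so that no shift of levels can be read from it. The share without overlap among other gene pairs was not computed, so the count of 7 is only a description. Epas1 minus Hif1a shifted by 0.49 (exact p = 0.4), with overlap, and by 0.23 to 0.99 with 1 array left out (0.23 without WT replicate 2, 0.26 without WT replicate 1 and 0.99 without WT replicate 3).

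**Figure D4:**
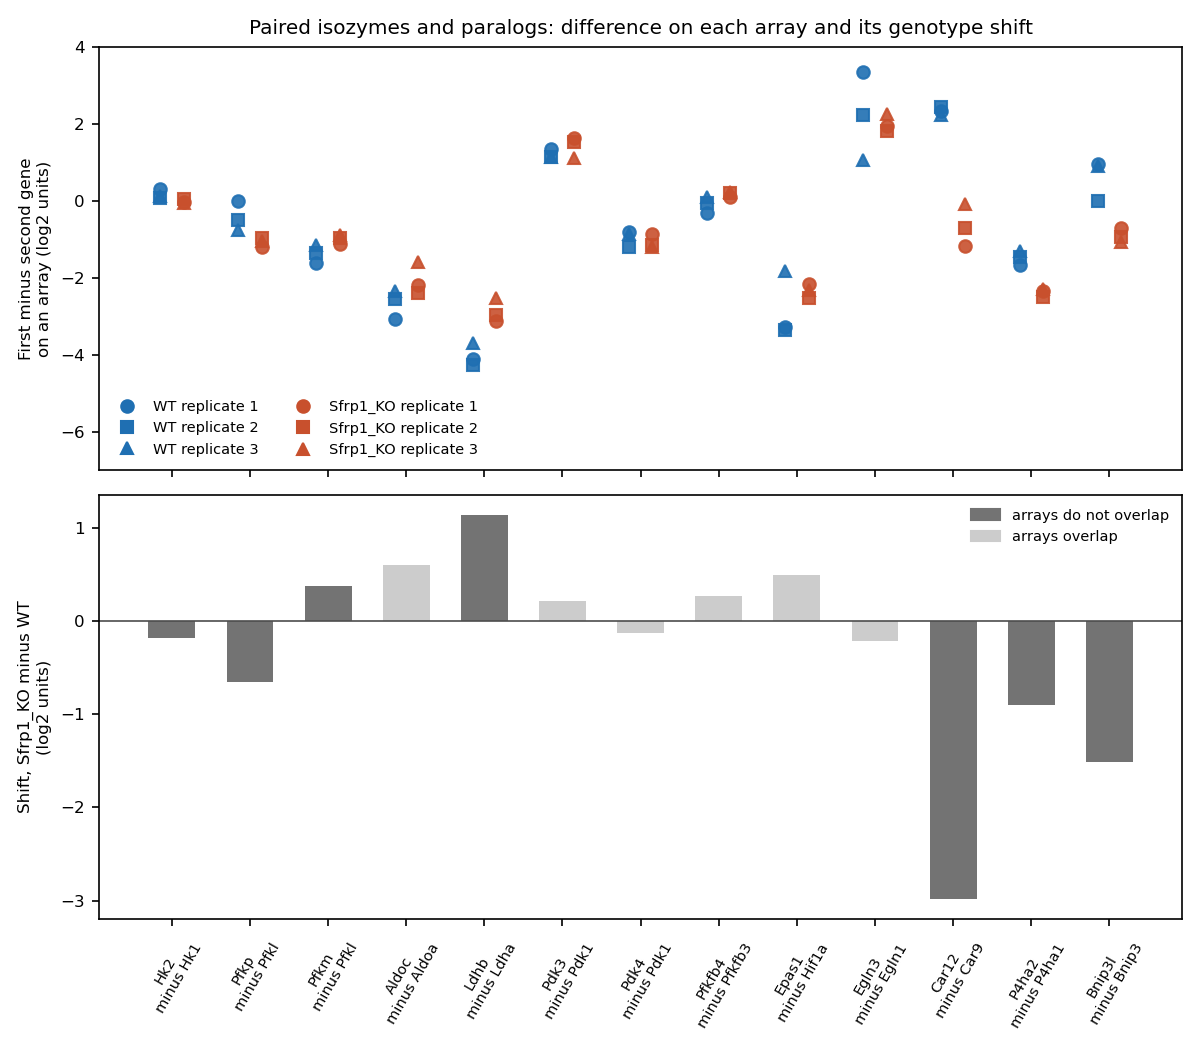
Upper panel, first minus second gene of each pair on each array (log2 units), with WT in blue and Sfrp1_KO in orange and circles, squares and triangles for replicates 1, 2 and 3; lower panel, the shift of that difference between genotypes (Sfrp1_KO mean minus WT mean, log2 units), dark where the arrays do not overlap. The height in the upper panel compares different probe sets and is not a ratio of RNA; the longest bar is Car12 minus Car9, at -2.99, where Car9 in WT was around background.

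Further genes of both pathways, from lists that share no gene with the 36, are given by their counts. Of 41 measured genes around glycolysis and pyruvate 2 rose, 0 fell and 39 did not pass by limma (4.88% called, median difference -0.03). At an unadjusted limma p under 0.05 stood 8 of the 41, 4 of them lower, with no share over all genes computed. The share called was 3.28% over all genes and 7.84% over genes above background by mean, where 17 of the 41 stood. Eno3, the muscle enolase, was at 5.11, 5.29 and 5.41 in WT and 6.02, 5.91 and 5.87 in Sfrp1_KO, and rose by 0.66 (SE 0.10, limma adjusted p = 0.0252). Of 8 skeletal muscle markers 7 were at or under background on every array, and Tnnt3 was above it on 2 arrays (4.95 ± 0.03 in WT, 5.05 ± 0.05 in Sfrp1_KO, SD, n = 3); their part in this result was not tested. Pgm2, a phosphoglucomutase gene listed as Pgm1 on the platform, was at 6.49, 6.62 and 6.38 against 7.62, 7.47 and 7.21, and rose by 0.94 (SE 0.13, limma adjusted p = 0.0174). Eno3 lost its call without WT replicate 2 or any Sfrp1_KO array (adjusted p up to 0.110), and Pgm2 without WT replicate 3 or Sfrp1_KO replicates 1 or 2 (up to 0.0888).

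Of 44 measured hypoxia response genes 2 rose, 1 fell and 41 did not pass (6.82% called, median difference 0.01). Called were 3.28% of all genes and 7.84% of genes above background by mean, where 25 of the 44 stood. Fam162a, a HIF-induced mitochondrial protein gene, was at 11.61, 10.07 and 10.60 in WT and at 7.74, 7.55 and 7.31 in Sfrp1_KO, and fell by 3.22 (SE 0.38, limma adjusted p = 0.0104; not called without Sfrp1_KO replicate 2, adjusted p = 0.0608). Rbpj, the transcription factor of Notch signalling, was at 7.02, 6.94 and 6.72 against 8.20, 8.69 and 8.41, and rose by 1.54 (SE 0.15, limma adjusted p = 0.00633). Cxcr4, a chemokine receptor, was at 4.68, 4.35 and 4.98 against 6.13, 6.03 and 6.24, and rose by 1.47 (SE 0.17, limma adjusted p = 0.00963). Rbpj and Cxcr4 passed whichever array was left out. Slc2a1, the glucose transporter GLUT1, was counted with the glycolysis and pyruvate genes above, and Vegfa, the angiogenic growth factor, among the 44. Both are textbook HIF targets and did not pass. They are named outside the rule for named genes, after their values were seen. Slc2a1 was at 11.60, 11.52 and 9.90 in WT and 10.02, 9.55 and 9.06 in Sfrp1_KO (difference -1.46, SE 0.49, limma adjusted p = 0.232), and Vegfa at 10.02, 9.97 and 8.56 against 9.77, 9.73 and 9.04 (difference -0.0027, SE 0.43, adjusted p = 0.999). For both, WT replicate 3 was the lowest WT array.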

How the data were processed

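Values were used as deposited, on a log2 scale. The submitters' processing notes name RMA and Affymetrix Expression Console, with versions, annotation and summarisation level not given in the sources used here. Of 65956 transcript clusters, 30604 had 1 platform gene symbol, 2146 several, and none was listed for 33206. Symbols were updated through gene identifiers of RefSeq (GRCm38.p6; 22951 features matched, 833 symbols changed), and the brightest feature by mean of the 6 arrays was kept for the 357 genes with several, leaving 30140 genes without a filter on dim ones. Each gene was fitted in limma 3.58.1 (R 4.3.3) by lmFit with eBayes; p-values were two-sided, adjusted by Benjamini-Hochberg across the 30140 genes, and a gene was called under 0.05; isozyme pairs had exact permutation tests (scipy 1.17.1). On simulated data the procedure recovered 24 of 50 changes of 1 log2 unit and 43 of 50 changes of 2, with 7 false calls. A gene without a call may therefore still differ. Members and lists were chosen with earlier results of these data known. Named genes are all members, Sfrp1, up to 6 called genes per further pathway list, and defining markers of keratinocytes, fibroblasts, leukocytes, endothelium, skeletal muscle and erythroid cells. Alternatives were the replicate block, dim genes left out, the mean of features, quantile normalization once more, array weights, trend and robust options, no moderation, a minimum difference of 1, all transcript clusters, and each array left out.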

Additional observations from a re-analysis of the deposited data

How the results depend on the processing

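By limma 552 genes were higher and 437 lower in Sfrp1_KO. The counts were 297 and 238 with the replicate block, 14 and 21 without moderation and 295 and 244 at a minimum difference of 1 log2 unit; with 1 array left out they ranged from 191 to 487 and from 100 to 407. Of the members, 1 was called higher and 3 lower; the counts were 0 and 0 without moderation, 0 higher at a minimum difference of 1, and ranged from 0 to 1 and from 0 to 4 with 1 array left out. Glycolysis and pyruvate genes called higher, 2 in all, were 1 with the replicate block and 0 without moderation or at a minimum difference of 1, and ranged from 0 to 2 with 1 array left out (lower, from 0 to 1). Hypoxia response genes called lower, 1 in all, were 2 with dim genes left out, with array weights or with the trend and robust options, and 0 without moderation, ranging from 0 to 3 with 1 array left out; those called higher, 2 in all, were 4 with array weights and 0 without moderation. The median difference of the members stayed between -0.25 and -0.05 under all alternatives.

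All 4 called members lost their call under at least 1 alternative and kept their direction under all. Of the 29 others, 3 passed under at least 1 (Epas1, Ndrg1 and Car9) and 7 changed sign under at least 1. Hk1 was at 0.0089 after quantile normalization once more and 0.016 with array weights, Pkm at 0.15 with array weights, and Ero1a at 0.0069 and 0.17. With 1 array left out, the ranges were -1.43 to 0.10 for Egln3, -0.028 to 0.018 for Hk1, -0.20 to 0.74 for Tpi1, -0.14 to 0.015 for Gapdh, -0.37 to 0.27 for Pkm, -0.13 to 0.066 for Pdk1, -1.21 to 1.45 for Adm, -0.68 to 0.39 for Ero1a and -0.78 to 0.35 for the shift of Egln3 minus Egln1. The cause was not tested.

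The labels number the samples 1 to 3 in both genotypes. Deviations from the genotype means correlated at 0.18, -0.12 and 0.17 between same-numbered arrays, so the numbers were not taken as pairs. With the replicate block Hif1a (limma adjusted p = 0.0680), P4ha1 (0.0597) and Eno3 (0.0968) were not called, and Car9 was (1.04, adjusted p = 0.0358). Signal at or under background on all 6 arrays means that no difference is read for Hk1, Pfkfb3, Pfkfb4, Eno2 and Pdk4.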
